A study of Mus musculus with 13 samples.

Results

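The proteasome genes of mouse Th17 cells are described here across 3 RNA-seq libraries labelled KO and 3 labelled WT for Chaf1b. The members are the rows of a table of 56941 genes whose symbol begins with Psma, Psmb, Psmc, Psmd, Psme, Psmf or Psmg and a digit, with pseudogenes left out and at least 1 count in every library. Of 54 matching rows, 4 were pseudogenes and 2 lacked a count in at least 1 library, which left 48. All 48 passed the filter on low counts. The rows left out for missing counts were Psmb11, the beta subunit of the thymus, with no count in any library, and Psma8, the alpha subunit of the testis, with 0, 2 and 2 counts in the libraries labelled KO and 15, 10 and 4 in those labelled WT. The member with the fewest counts in any library was Psmc3ip, with 326 in WT replicate 1. Among the 48, Psmc3ip matches the name rule only through its name, since it encodes a meiotic recombination factor and no subunit, and Psme2b is a gene copy of Psme2. The other 46 encode subunits, activators, the inhibitor or assembly chaperones of the particle.

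In both groups, spleen was the source of naive CD4+ T cells, which were cultured for 72 hours after activation under Th17-polarizing conditions. The libraries labelled KO carry the genotype Chaf1bfl/fl;Il17fCre+, in which Cre stands under Il17f and so acts in cells that have switched Il17f on. The libraries labelled WT carry Chaf1bWT, and the labels do not say whether they carry the Cre or how old the mice were. Chaf1b encodes a subunit of CAF-1, the chaperone that places histones on newly copied DNA. Biological replicates is the labels' term for the 3 libraries per genotype. Whether each is a separate animal is not said, so a p-value here measures spread among libraries that may be technical.

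The proteasome is the protease of the cytosol and nucleus that destroys proteins tagged with ubiquitin. Its 20S core is a barrel of alpha and beta rings, in which Psmb5, Psmb6 and Psmb7 hold the cutting sites. A 19S cap with an ATPase ring (Psmc genes) and a lid and base (Psmd genes) binds, unfolds and feeds in the substrate. Interferon gamma and related signals induce Psmb8, Psmb9 and Psmb10, which replace the constitutive cutting subunits to form the immunoproteasome, and Psme1 and Psme2, which form the PA28 activator. Lymphocytes express these inducible subunits without infection, and the peptides they make are loaded on MHC class I.

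Promoter letters are shown for genes on which the comparison turns: Psmb9 and Psmd5, which passed the test, and Psmb8, Psmb5 and Psmb6, which pair with or stand against them. The letters are from RefSeq (GRCm38.p6), 5′ to 3′ on the strand of the gene, and end at the base before its annotated start. Capitals mark a gamma-activated site (TTCNNNGAA) in Psmb8, an antioxidant response element (TGACNNNGC) in Psmb5 and Psmb6, and GC boxes (GGGCGG) in Psmb9, Psmb6 and Psmd5, on either strand. The Psmb9 stretch, chr17:34187331-34187555 on the minus strand, is the whole 225 bases between the starts of Psmb9 and Tap1, the peptide transporter gene read the other way. The others are 250 bases long, at chr17:34197945-34198194 on the plus strand for Psmb8, chr14:54617996-54618245 on the minus strand for Psmb5, chr11:70525107-70525356 on the plus strand for Psmb6 and chr2:34870963-34871212 on the minus strand for Psmd5.
Psmb9: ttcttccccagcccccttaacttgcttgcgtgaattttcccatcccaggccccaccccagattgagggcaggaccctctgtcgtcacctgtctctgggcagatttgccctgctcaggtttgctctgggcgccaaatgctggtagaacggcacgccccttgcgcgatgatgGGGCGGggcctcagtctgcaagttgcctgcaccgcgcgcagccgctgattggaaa
Psmb8: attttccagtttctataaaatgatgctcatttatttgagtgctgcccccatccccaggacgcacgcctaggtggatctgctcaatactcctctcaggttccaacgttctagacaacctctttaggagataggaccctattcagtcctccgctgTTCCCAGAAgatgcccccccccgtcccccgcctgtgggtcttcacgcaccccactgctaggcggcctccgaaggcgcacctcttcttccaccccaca
Psmb5: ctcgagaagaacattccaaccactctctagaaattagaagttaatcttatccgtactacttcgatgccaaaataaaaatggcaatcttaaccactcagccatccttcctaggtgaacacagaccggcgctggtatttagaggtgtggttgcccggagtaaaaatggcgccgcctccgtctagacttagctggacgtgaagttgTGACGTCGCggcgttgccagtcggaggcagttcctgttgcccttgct
Psmb6: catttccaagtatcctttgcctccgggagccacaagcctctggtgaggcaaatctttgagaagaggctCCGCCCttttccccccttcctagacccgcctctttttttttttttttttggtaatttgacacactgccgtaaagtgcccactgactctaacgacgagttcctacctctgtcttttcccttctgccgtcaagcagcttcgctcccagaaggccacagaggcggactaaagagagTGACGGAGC
Psmd5: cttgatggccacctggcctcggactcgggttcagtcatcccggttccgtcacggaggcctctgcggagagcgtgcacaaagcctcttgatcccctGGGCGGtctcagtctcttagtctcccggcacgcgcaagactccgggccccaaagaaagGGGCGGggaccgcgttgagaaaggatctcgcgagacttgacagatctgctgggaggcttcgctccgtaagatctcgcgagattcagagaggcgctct

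Over all 32851 RefSeq promoter windows of 250 bases, 7.02% held the gamma-activated site, 10.2% the antioxidant response element, 32.7% a GC box and 2.98% the interferon-stimulated response element (GAAA, any 2 bases, GAAA), each on either strand. Of the 41 members with a window, 2 held the gamma-activated site (Psmb8 and Psmg1), 5 the antioxidant response element (Psmb5, Psmb6, Psmc6, Psmd12 and Psmd9), 22 a GC box and 3 the interferon-stimulated response element (Psmb3, Psmd4 and Psmd9). None of the 5 inducible genes held that last motif in this window. A match to these letters is a description and does not show that a factor binds.

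Total counts ran from 35708879 to 38395131 in the libraries labelled KO and from 38099488 to 45232055 in those labelled WT. Chaf1b itself was counted 572, 567 and 498 times in the libraries labelled KO and 541, 438 and 525 times in those labelled WT, and was not lower in KO (log2 fold change 0.31 ± 0.11 (SE), adjusted p = 0.130 in edgeR's quasi-likelihood test); it passed as higher without WT replicate 1 (adjusted p = 0.0138). The counts sum all exons and the deleted part is not given in the sources used here, so this count cannot check the genotype, and each direction below rests on the labels. Il17a and Il17f, which define the cell type, were counted in every library, at 8.44 to 9.89 and 5.33 to 6.45 CPM (counts scaled to a common library size with TMM factors) in those labelled KO and 43.1 to 104 and 25.8 to 64.9 CPM in those labelled WT. WT replicate 1 had the highest Il17a and Il17f of all 6 libraries. Leaving it out changed many calls. Among the members these are given beside the results, apart from Psmc2, Psmc5 and Psmd13, which also passed as higher without it.

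Most proteasome genes had fitted levels slightly above WT in the libraries labelled KO, and few passed the test. Psmd5, Psmb9, Psma1, Psma5 and Psmc3ip passed an adjusted p of 0.05 as higher, and no member passed as lower. At an unadjusted p under 0.05, 17 members were higher and 0 lower, against 10.9% and 10.2% of all tested genes. DESeq2 called 6 members higher and 0 lower, against 5.47% and 4.12% of all genes it tested, and limma-voom 4 and 0, against 3.81% and 2.07%. The test was edgeR's quasi-likelihood test, here and below, with Benjamini-Hochberg adjustment over 14681 genes. The 5 calls are 10.4% of the 48 members, against 3.92% of all tested genes called higher, 2.47% called lower and 6.39% called in either direction. Fitted log2 fold changes (KO over WT) were above 0 for 40 of 48 members, or 83.3%, against 48.7% of all tested genes. Their median was 0.08, against -0.01 over all tested genes, and they ran from -0.11 to 0.52. The KO libraries all lay above the WT libraries for 23 members (47.9%) and below them for none, against 14.4% and 12.4% of all tested genes. Among the 7163 tested genes with a mean of at least 20 CPM, 8.24% were called, 4.79% as higher and 3.45% as lower. Of these more abundant genes 17.5% had KO above WT and 13% KO below, and their median was 0.007. At an unadjusted p under 0.05, 932 of the 7163 were higher. In summed CPM the members reached 8195, 7989 and 7945 in the libraries labelled KO, against 7574, 7540 and 7623 in those labelled WT. Their share of all raw counts was 0.788% to 0.806% in the libraries labelled KO and 0.759% to 0.769% in those labelled WT, with no overlap. In such bulk RNA, more cells with high levels and more RNA per cell cannot be told apart.

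The number of calls depended on single libraries. Without WT replicate 1, 14 members were called higher and 1, the nuclear activator gene Psme3, lower (log2 fold change -0.11, adjusted p = 0.0383 in edgeR's test). Calls over all genes moved with it, to 10.6% higher and 9.12% lower in that fit. Psmd5 was the one member called without WT replicate 2 or any 1 of the libraries labelled KO. Over all genes the share called higher was then 1.48% with KO replicate 1 left out, 1.6% with KO replicate 2, 1.56% with KO replicate 3 and 1.77% with WT replicate 2 left out. It was the one member called in all 6 fits without a library.

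**Figure D1:**
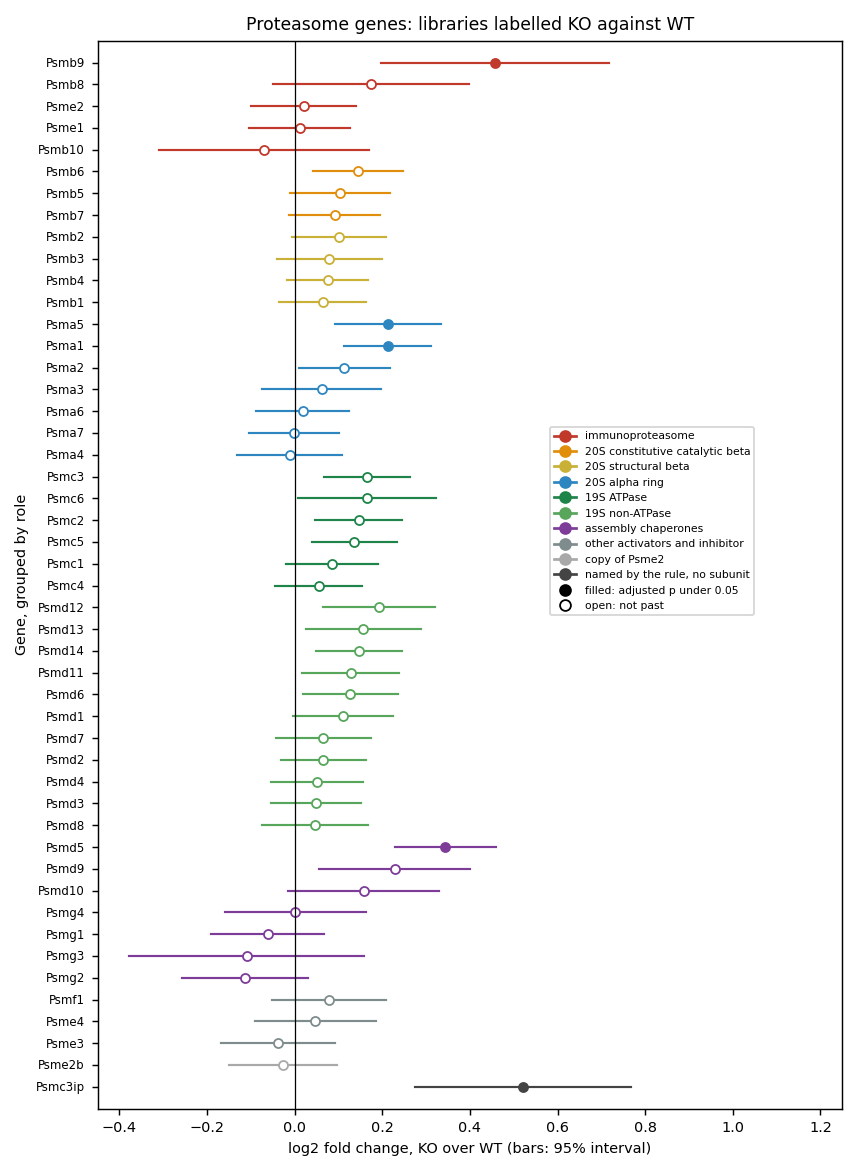
Fitted log2 fold change (KO over WT) of each of the 48 genes, grouped and coloured by role, with the 95% interval; filled points passed an adjusted p of 0.05. The 5 filled points all lie right of 0, and 40 of 48 points do.

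**Figure D2:**
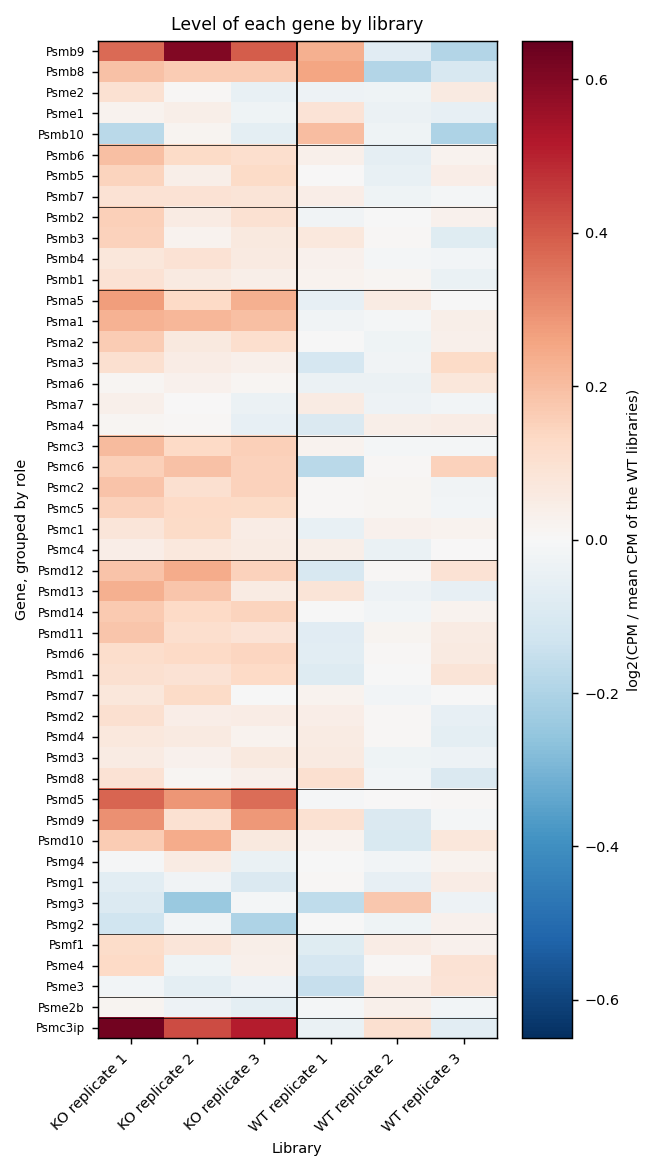
Level of each gene in each library as log2 of its CPM over the mean CPM of the WT libraries; red is higher and blue lower, and the libraries labelled KO are on the left. Psmd5 and Psmb9 are red in every KO library, and WT replicate 1 is red for Psmb8, Psmb9 and Psmb10.

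Of the 5 inducible genes, Psmb9 alone was called. Psmb9, the inducible partner of Psmb6 in the core, was at 20.7, 24.4 and 21.1 CPM in the libraries labelled KO, against 18.9, 15.3 and 14.1 CPM in those labelled WT. Every KO value lay above every WT value, and the WT library nearest to them was WT replicate 1. The gene rose 1.37-fold (log2 fold change 0.46 ± 0.12 (SE), adjusted p = 0.0437). Leave-one-out fits lost that call in 5 of 6 cases (adjusted p from 0.0837 to 0.208), the exception being the fit without WT replicate 1. It was also lost with the stricter filter (adjusted p = 0.0522), while the log2 fold change stayed between 0.37 and 0.59 over the 6 fits.

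Psmb8, which replaces Psmb5 and cuts after hydrophobic residues, was at 66.1, 65.1 and 65.1 CPM in the libraries labelled KO, against 69.2, 50.8 and 54.0 CPM in those labelled WT. The KO libraries lay close together and inside the WT range, and WT replicate 1 was the highest of all 6. Psmb8 did not pass (log2 fold change 0.17 ± 0.10 (SE), 95% interval -0.05 to 0.40, adjusted p = 0.364). Without WT replicate 1 it was 0.32 and passed (adjusted p = 9.46e-05), and it passed with limma-voom quality weights per library (0.31, adjusted p = 0.00297).

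Psmb10, which replaces Psmb7, was at 18.7, 21.4 and 20.3 CPM in the libraries labelled KO, against 24.3, 20.8 and 18.4 CPM in those labelled WT. WT replicate 1 was again the highest of the 6 and WT replicate 3 the lowest, so the groups overlapped (log2 fold change -0.07 ± 0.11 (SE), adjusted p = 0.771). The sign was positive without WT replicate 1 (0.043).

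Neither PA28 gene passed. Psme1, the alpha subunit of PA28, was at 186, 187 and 179 CPM in the libraries labelled KO, against 194, 178 and 176 CPM in those labelled WT. Psme2, the beta subunit, was at 158, 148 and 142 CPM in the libraries labelled KO, against 144, 145 and 153 CPM in those labelled WT. The groups overlapped for both, with 95% intervals of the log2 fold change from -0.10 to 0.13 for Psme1 and -0.10 to 0.14 for Psme2. Psme2b, the copy of Psme2, did not pass either (-0.03 ± 0.06 (SE), adjusted p = 0.834), and reads that fit Psme2 and Psme2b alike may have been dropped or misassigned, which makes both counts uncertain.

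Set against each other, the inducible genes had 1 of 5 called higher and the other 43 members 4, against 3.92% of all tested genes. Their median log2 fold changes were 0.02 for the inducible genes and 0.08 for the others. KO lay above WT for 1 of 5 inducible genes and for 22 of the 43 others. The shares were 14.4% of all tested genes and 17.5% of those with a mean of at least 20 CPM. With 5 genes, 1 call or 1 gene above WT cannot be told from those shares. The summed CPM of the inducible genes was 449, 446 and 428 in the libraries labelled KO and 450, 409 and 416 in those labelled WT, which overlapped. The other members summed to 7747, 7543 and 7517 CPM in the libraries labelled KO and 7123, 7131 and 7207 CPM in those labelled WT, which did not. The difference between the 2 sets was not tested. Fewer genes stand behind the inducible median. The SE was 0.10, 0.12 and 0.11 for Psmb8, Psmb9 and Psmb10, wider than the median SE of the other members (0.05). For Psme1 and Psme2 it was 0.05.

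Each inducible cutting subunit was also set against the constitutive subunit it replaces, as the ratio of counts within a library. Lengths were not available, so a ratio has meaning only when compared between libraries. The Psmb9 to Psmb6 ratio was 0.0621, 0.0767 and 0.0671 in the libraries labelled KO, against 0.0635, 0.0545 and 0.0475 in those labelled WT. KO replicate 1 fell below WT replicate 1, so the groups overlapped, and the log2 ratio differed by 0.32 ± 0.15 (SE; exact permutation p = 0.2, 0.45 adjusted over 3 pairs). For Psmb8 to Psmb5 the ratio was 0.495, 0.526 and 0.496 in the libraries labelled KO, against 0.573, 0.436 and 0.434 in those labelled WT (difference in log2 ratio 0.08 ± 0.14 (SE), exact permutation p = 0.6). The Psmb10 to Psmb7 ratio was 0.147, 0.168 and 0.160 in the libraries labelled KO, against 0.198, 0.177 and 0.156 in those labelled WT (-0.16 ± 0.12 (SE), exact permutation p = 0.3). The tests were two-sided and 3 against 3 libraries cannot give a p below 0.1. In all 3 pairs WT replicate 1 held the highest ratio of the WT libraries.

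**Figure D3:**
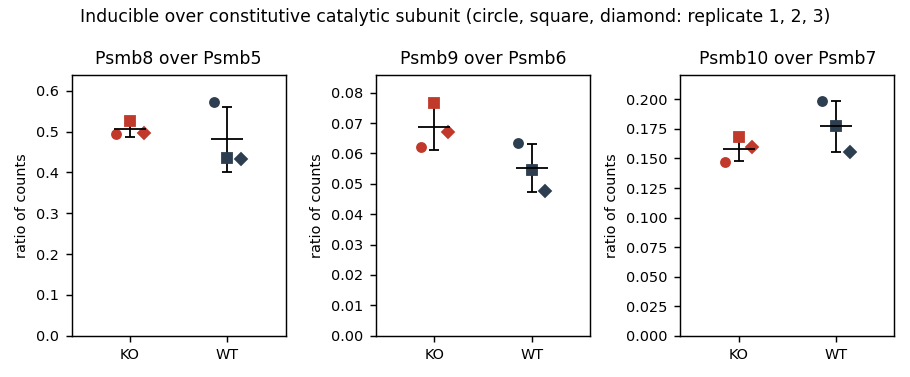
Ratio of counts of the inducible to the constitutive cutting subunit in each library, with the mean and SD of each group (n = 3); the libraries labelled KO are on the left. The groups overlap in all 3 pairs, and the circle of WT replicate 1 is the top WT point in each.

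The 3 constitutive cutting subunits had positive fitted values and none passed. Psmb6, which carries the caspase-like site, was at 334, 318 and 315 CPM in the libraries labelled KO, against 298, 280 and 296 CPM in those labelled WT. The groups did not overlap, and the log2 fold change of 0.14 ± 0.05 (SE) missed the threshold (adjusted p = 0.0997), which it passed without WT replicate 1 (0.16, adjusted p = 0.00436). Psmb5, with the chymotrypsin-like site, was at 134, 124 and 131 CPM in the libraries labelled KO, against 121, 117 and 124 CPM in those labelled WT (0.10 ± 0.05 (SE), adjusted p = 0.288). Psmb7, with the trypsin-like site, was at 127, 128 and 127 CPM in the libraries labelled KO, against 122.7, 117 and 118 CPM in those labelled WT (0.09 ± 0.05 (SE), adjusted p = 0.299). The 4 beta subunits without cutting sites, Psmb1, Psmb2, Psmb3 and Psmb4, had log2 fold changes from 0.06 (Psmb1) to 0.10 (Psmb2), and none passed at an adjusted or unadjusted p of 0.05.

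In the alpha ring, which gates entry to the barrel, 2 of 7 genes were called higher. Over all tested genes 3.92% were, and 4.79% of those with a mean of at least 20 CPM. Psma1 was at 200, 198 and 195 CPM in the libraries labelled KO, against 168, 169 and 175 CPM in those labelled WT. Each KO value was above each WT value by more than the spread within either group, and the gene rose 1.16-fold (log2 fold change 0.21 ± 0.05 (SE), adjusted p = 0.0187). Psma5 was at 138, 125 and 134 CPM in the libraries labelled KO, against 110, 118 and 114 CPM in those labelled WT. It rose by the same amount (0.21 ± 0.06 (SE), adjusted p = 0.0437), with KO replicate 2 closest to the WT libraries. Both calls depended on single libraries. That of Psma1 was lost on leaving out WT replicate 2 or any 1 of the KO libraries (adjusted p up to 0.132), and that of Psma5 in every fit without a library other than the fit without WT replicate 1 (up to 0.243). Over those fits the log2 fold changes stayed between 0.20 and 0.23 for Psma1 and between 0.18 and 0.25 for Psma5. The other 5 alpha genes ran from -0.01 (Psma4) to 0.11 (Psma2).

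The 6 ATPase genes of the cap had positive fitted values, from 0.05 for Psmc4 to 0.16 for Psmc3, and none passed (4 were higher at an unadjusted p under 0.05, against 10.9% of all tested genes). Psmc3 came nearest, at 282, 267 and 271 CPM in the libraries labelled KO, against 248, 242 and 242 CPM in those labelled WT (0.16 ± 0.04 (SE), adjusted p = 0.0521). It passed with DESeq2, with the stricter filter, with quality weights and without WT replicate 1. The KO libraries lay above the WT libraries for 5 of the 6 ATPase genes. In Psmc6, the exception, WT replicate 3 reached the KO range. KO lay above WT for 14.4% of all tested genes and 17.5% of those with a mean of at least 20 CPM. Summed, the ATPase genes were at 1288, 1271 and 1266 CPM in the libraries labelled KO, against 1156, 1168 and 1180 CPM in those labelled WT. That is 109% of the WT mean.

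All 11 non-ATPase subunits of the cap likewise had positive fitted values and none passed (5 were higher at an unadjusted p under 0.05, against that same 10.9%). They ran from 0.05 for Psmd8 to 0.19 for Psmd12. Psmd12, a scaffold subunit of the lid, was at 149, 155 and 146 CPM in the libraries labelled KO, against 122, 132 and 140 CPM in those labelled WT, without overlap (0.19 ± 0.06 (SE), adjusted p = 0.0785). Psmd14, the lid enzyme that removes ubiquitin from the substrate, was at 208, 202 and 204 CPM in the libraries labelled KO, against 184, 182 and 188 CPM in those labelled WT (0.15 ± 0.04 (SE), adjusted p = 0.0784). Both passed without WT replicate 1. For Psmd2, a base scaffold, and Psmd4, a ubiquitin receptor, the values were 0.07 ± 0.04 and 0.05 ± 0.05 (SE; adjusted p = 0.443 and 0.602).

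Assembly chaperones are taken by the piece of the particle they serve. Psmd5, Psmd9 and Psmd10 help build the ATPase ring of the cap and leave before it is complete. Psmd5 was at 92.1, 86.5 and 91.0 CPM in the libraries labelled KO, against 70.3, 71.0 and 71.1 CPM in those labelled WT. The 3 WT libraries lay within 1 CPM of each other and well below every KO library. The gene rose 1.27-fold (log2 fold change 0.34 ± 0.05 (SE), adjusted p = 0.00289), and over all 14 alternative fits its adjusted p stayed at or below 0.0394. Psmd9 was at 45.3, 39.4 and 44.7 CPM in the libraries labelled KO, against 39.4, 34.5 and 36.5 CPM in those labelled WT (0.23 ± 0.08 (SE), adjusted p = 0.117), and KO replicate 2 all but touched WT replicate 1. Without WT replicate 1, Psmd9 passed as higher (adjusted p = 0.00476 in edgeR's test). Psmd10, also known as gankyrin, had 0.16 ± 0.08 (SE; adjusted p = 0.283).

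Psmg1, Psmg2, Psmg3 and Psmg4 form the pairs that build the alpha ring of the core. Their log2 fold changes ran from -0.11 (Psmg2) to 0.001 (Psmg4), none passed even unadjusted, and the groups overlapped for all 4. Psmg2 was at 46.03, 49.6 and 43.8 CPM in the libraries labelled KO, against 50.3, 49.2 and 51.3 CPM in those labelled WT (-0.11 ± 0.07 (SE), adjusted p = 0.359). Summed, the 3 cap chaperones were at 171, 161 and 167 CPM in the libraries labelled KO and 140, 134 and 139 CPM in those labelled WT, and the 4 core chaperones at 136, 141 and 132 CPM in the libraries labelled KO and 142, 141 and 146 CPM in those labelled WT. The split between cap and core chaperones was chosen after their values were seen and was not tested.

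The other activators and the inhibitor did not pass, nor did any at an unadjusted p of 0.05. Psme3, the nuclear PA28 gamma, was at 436, 422 and 431 CPM in the libraries labelled KO, against 398, 456 and 470 CPM in those labelled WT (-0.04 ± 0.06 (SE), adjusted p = 0.778), with WT replicate 1 the lowest of all 6. Psme4, the PA200 activator, had 0.05 ± 0.06 (SE; adjusted p = 0.733) and the inhibitor gene Psmf1 0.08 ± 0.06 (SE; adjusted p = 0.502). Psmc3ip, which helps pair chromosomes in meiosis, was at 12.6, 11.0 and 11.6 CPM in the libraries labelled KO, against 7.95, 8.78 and 7.80 CPM in those labelled WT. It rose 1.44-fold (0.52 ± 0.11 (SE), adjusted p = 0.0195) and lost its call on leaving out WT replicate 2 or any 1 of the KO libraries (adjusted p up to 0.126). In the RefSeq table it overlaps the end of Mlx, and the counts carry no strand, so reads of the 2 genes cannot be fully told apart. It is among 14 members that overlap another gene there. Psme1 (with Emc9), Psmb5 (with Mir686) and Psmb7 (with Gm13586) are others, and the same limit may apply to them.

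**Figure D4:**
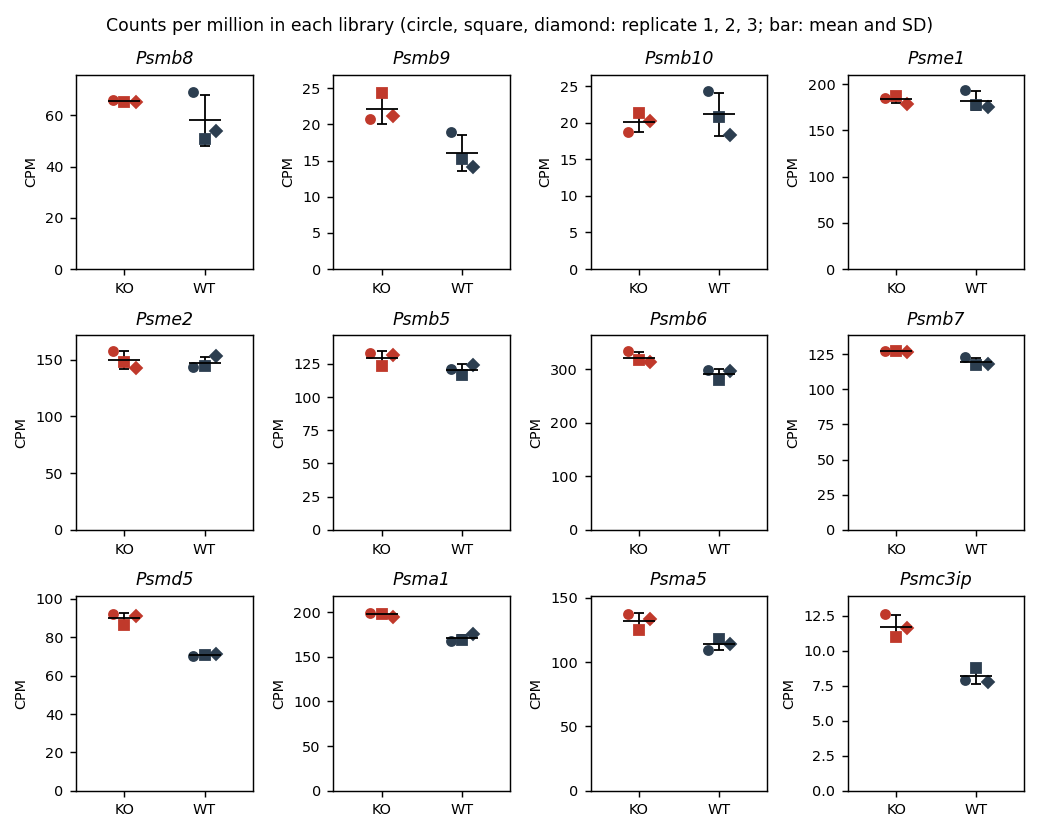
CPM of 12 genes in each library (KO on the left), with the mean and SD of each group (n = 3), on axes that start at 0. Psmd5, Psma1, Psma5, Psmb9 and Psmc3ip have every KO point above every WT point, while Psmb8, Psmb10, Psme1 and Psme2 overlap.

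**Figure D5:**
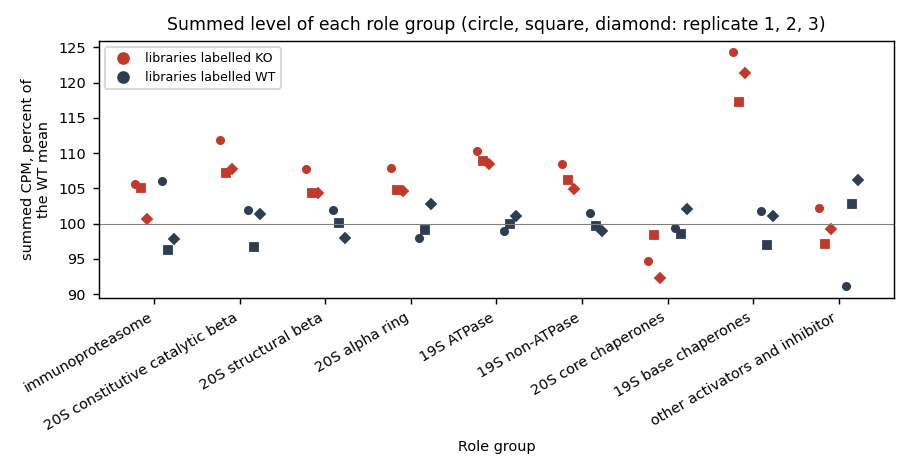
Summed CPM of each role group in each library, as a percent of the WT mean, with the libraries labelled KO left of those labelled WT. The cap chaperones (19S base chaperones) reach 121% on average and the ATPase genes 109%, while the inducible genes overlap the WT libraries; the vertical axis does not start at 0.

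Of 13 tested partners of the particle, none passed (4 were higher at an unadjusted p under 0.05, against 10.9% of all tested genes), and their median log2 fold change was 0.08. The ubiquitin receptor gene Adrm1 had 0.11 ± 0.05 (SE; adjusted p = 0.233) and the cap-bound redox gene Txnl1 0.09 ± 0.05 (SE; adjusted p = 0.360). Pomp, the maturation factor of the core, was at 111, 109 and 108 CPM in the libraries labelled KO. The libraries labelled WT were at 113, 114 and 117 CPM, above every KO value. Pomp did not pass (-0.07 ± 0.05 (SE), adjusted p = 0.447).

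Of 15 genes of ubiquitin supply and delivery, 2 passed as higher, against 3.92% of all tested genes. Vcp, the segregase that pulls ubiquitin-tagged proteins from complexes, was at 660, 629 and 641 CPM in the libraries labelled KO, against 539, 590 and 573 CPM in those labelled WT (0.18 ± 0.05 (SE), adjusted p = 0.0382). Its cofactor gene Nploc4 rose by a like amount (0.17 ± 0.04 (SE), adjusted p = 0.0430). The Vcp call held in 2 of the 6 fits without a library and the Nploc4 call in 1.

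Nfe2l1 encodes the factor NRF1, which drives proteasome genes when proteasome activity runs short. Its transcript was at 729, 697 and 700 CPM in the libraries labelled KO, against 693, 688 and 675 CPM in those labelled WT, without overlap and without passing (0.05 ± 0.04 (SE), adjusted p = 0.535). Of 9 tested genes on the list of NRF1 and its control, Ngly1 alone passed, against 6.39% of all tested genes called in either direction. Ngly1 encodes the enzyme that strips sugars from NRF1. It was at 42.7, 44.6 and 44.4 CPM in the libraries labelled KO, against 36.6, 36.96 and 36.1 CPM in those labelled WT (0.26 ± 0.06 (SE), adjusted p = 0.0281), and the call held in 2 of the 6 fits without a library. Ddi2, the protease that cuts NRF1 into its active form, had -0.18 ± 0.06 (SE; adjusted p = 0.133), with every KO library below every WT library.

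Ifng, which encodes interferon gamma, the main inducer of the immunoproteasome, was at 151, 124 and 124 CPM in the libraries labelled KO, against 33.5, 50.2 and 57.4 CPM in those labelled WT (log2 fold change 1.497 ± 0.20 (SE), adjusted p = 0.00766). WT replicate 1 had the least Ifng of the 6 libraries and, among those labelled WT, the most Psmb8, Psmb9, Psmb10 and Tap1. Of 14 genes of interferon gamma response, 2 passed as higher, against 3.92% of all tested genes. They were Ifng and Nlrc5, the activator of MHC class I genes (0.30 ± 0.08 (SE), adjusted p = 0.0466). The Nlrc5 call held in 1 of the 6 fits without a library, that without WT replicate 1. Irf1, the factor that binds the promoters of inducible subunits, had 0.11 ± 0.18 (SE; adjusted p = 0.791), and passed as higher without WT replicate 1 (0.38, adjusted p = 0.0321). Ifngr2, a chain of the interferon gamma receptor, was at 27.2, 27.4 and 27.9 CPM in the libraries labelled KO. The libraries labelled WT were at 46.8, 34.3 and 31.4 CPM, above every KO value. Ifngr2 did not pass (-0.45 ± 0.13 (SE), adjusted p = 0.0735). WT replicate 1 had the most Ifngr2 and Irf1 of the 6 libraries. How these levels, Ifng and the inducible genes relate in that library was not tested.

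Of 11 genes that load peptides on MHC class I, 5 passed as higher and none as lower, against 3.92% and 2.47% of all tested genes. B2m, the light chain, was at 655, 669 and 636 CPM in the libraries labelled KO, against 468, 448 and 469 CPM in those labelled WT (0.50 ± 0.04 (SE), adjusted p = 5.04e-05). The heavy chain genes H2-K1 and H2-D1 rose by 0.45 ± 0.06 and 0.43 ± 0.06 (SE; adjusted p = 0.00201 and 0.00145), with counts that near-identical class I genes may blur. The chaperone genes Calr and Pdia3 rose by 0.24 ± 0.04 and 0.19 ± 0.05 (SE; adjusted p = 0.00592 and 0.0313). The calls of B2m, H2-K1 and H2-D1 held in all 6 fits without a library, that of Calr in 5 and that of Pdia3 in 2. Tap1, which shares the stretch between the starts printed above with Psmb9, was at 127, 130 and 122 CPM in the libraries labelled KO, against 118, 95.7 and 83.3 CPM in those labelled WT. Tap1 and Psmb9 each lay above WT in every KO library, and Tap1 did not pass (0.35 ± 0.11 (SE), adjusted p = 0.0898). Without WT replicate 1 it passed (0.495, adjusted p = 2.38e-08).

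Markers of other cells moved beside these values. For the calls below, 3.92% of all tested genes were called higher and 2.47% lower. Summed dendritic markers were at 208 to 216 CPM in the libraries labelled KO and 148 to 156 CPM in those labelled WT, mainly through Cd74, with 2 of 4 tested genes called higher. The defining dendritic genes Clec9a and Siglech had no count in any library, and Flt3 was at most 0.236 CPM. Summed B cell markers were at 96.9 to 103 CPM in the libraries labelled KO and 68.3 to 81.6 CPM in those labelled WT, mainly through Ighm, with 2 of 4 tested genes called higher and 1 lower. Ebf1 of that list ran the other way, at 8.66 to 10.8 CPM in the libraries labelled KO and 13.6 to 17.5 CPM in those labelled WT. Pax5 had no count in any library labelled KO and was at 0.0439 to 0.39 CPM in those labelled WT, and Ms4a1 stayed at or below 0.114 CPM throughout. Gamma delta T cell markers were at 95.8 to 101 CPM in the libraries labelled KO and 50.7 to 62.6 CPM in those labelled WT, with 4 of 5 called higher. Their part in the proteasome values was not tested. Myeloid markers summed to 11.7 to 12.8 CPM in the libraries labelled KO and 6.46 to 7.04 CPM in those labelled WT, with 1 of 5 tested genes called higher and with S100a8 and S100a9 at 0 in every library. Erythroid markers summed to 1.76 to 5.21 CPM in the libraries labelled KO and 0.682 to 1.01 CPM in those labelled WT. NK markers reached at most 0.228 CPM, and Ncr1, Klrb1c and Klra8 were at 0. CD8 markers overlapped, at 12.4 to 16.6 CPM in the libraries labelled KO and 14.1 to 15.98 CPM in those labelled WT. Those of CD4 and Th17 cells were at 872 to 899 CPM in the libraries labelled KO and 944 to 1238 CPM in those labelled WT, with 4 of 11 called lower. Stromal and endothelial markers were at 26.6 to 28.1 CPM in the libraries labelled KO and 28.0 to 31.9 CPM in those labelled WT. Mitochondrial transcripts took 0.277% to 0.305% of counts in the libraries labelled KO and 0.265% to 0.337% in those labelled WT, which overlapped. Ribosomal protein genes took 8.54% to 8.76% in the libraries labelled KO and 8.55% to 8.86% in those labelled WT, which also overlapped.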

How the data were processed

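RNA-seq of 6 Th17 libraries was used, and 7 samples of other assays in the series were not analysed here. The deposited values are raw counts. Per the file headers, featureCounts 2.0.1 summed exons per gene of GENCODE vM33, with no strand, multi-mapping or paired-end option in the 5 commands that print options. Aligner version and genome build: not given in the sources used here. Of counts from 1 to 20, 65.6% to 67.7% were even, the pattern left when both mates are counted, so counts overstate independent fragments. In the record of units the column of WT replicate 2 is entered as other; it holds raw counts like the rest. No exon lengths were given, so the planned per-length shares became ratios of counts and the planned summed TPM became summed CPM, and levels are not compared between genes.

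Symbols were found for 51948 of 56941 gene IDs (91.2%). Counts were fitted with edgeR 4.0.16 in R 4.3.3 (default filter, TMM factors, robust quasi-likelihood, genotype as the term), with an adjusted p threshold of 0.05 over 14681 genes, after testing on simulated data. CPM use TMM library sizes, and SE was derived by dividing each fitted change by root F. The biological coefficient of variation was 9.28%. No 2 libraries agreed within sampling noise (lowest chi-square 4.19 times its degrees of freedom). Ratios were compared with exact permutation tests (scipy 1.17.1). Alternatives used DESeq2 1.42.0, limma 3.58.1, other factors and filters, a block and leaving out each library.

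Members and lists were chosen with earlier results of these data known. All members were open to being named: in full the 5 inducible genes, their 3 counterparts and called members; the extremes of each role; called pathway genes (up to 4 a list, or the 2 with most CPM where none passed); and Nfe2l1, Ifng, Irf1 and Nlrc5. Some genes that the rule names are not reported here. Other genes named, such as Pomp, Tap1, Ddi2, Ifngr2, Pdia3, Psmd14, Psmd2 and Psmd4, were chosen after their values were seen. RefSeq tables (GRCm38.p6) gave promoters and neighbouring genes.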

Additional observations from a re-analysis of the deposited data

How the results depend on the processing

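The 938 calls over all genes became 1568 with no filter, 2862 with quality weights and 295 to 2961 when 1 library was left out, most without WT replicate 1. The 5 members called higher became 18 with quality weights and 1 to 14 without 1 library, and 0 to 1 members were called lower there. Upper-quartile and median-of-ratios factors kept the same 5 calls; no filter and DESeq2 each called 6 and limma-voom 4. With the stricter filter 5 members were called, Psmc3 in place of Psmb9. The medians of the inducible and other members moved by less than the spread between libraries in every alternative run. When 1 library was left out, the log2 fold change of Psmb10 ran from -0.16 to 0.043, that of Psme1 from -0.014 to 0.058, that of Psme2 from -0.025 to 0.052 and that of Irf1 from -0.021 to 0.38; the cause was not tested. The Ifng call was lost with no filter (adjusted p = 0.0618 in edgeR's test). The differences in log2 ratio of the 3 subunit pairs kept their direction in every alternative run; the length correction was not run. The labels tie libraries of the 2 groups only by replicate number. The correlations of same-numbered deviations were -0.02, -0.08 and 0.13, and only KO replicate 3 matched its own number best. With 3 libraries per group these values cannot settle whether same-numbered libraries share a batch. With the replicate number as a block, 2 members were called higher, Psmd5 and Psmc3ip, and 671 genes over all. The paired differences in log2 ratio were 0.08 for Psmb8 to Psmb5, 0.32 for Psmb9 to Psmb6 and -0.16 for Psmb10 to Psmb7. With every library paired they equal the unpaired differences by arithmetic, so they add no check of direction. In exact permutation tests within replicate numbers p was at least 0.5, and 3 pairs cannot give a small p.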
